A study of Mus musculus with 6 samples.

Results

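Plasma cells are the antibody-secreting end stage of B cells, and the genes that mark them were measured here in CD4+CD25+ T cells isolated from mice lacking Mbd2. The set comprised 8 genes (Jchain, Ighm, Xbp1, Prdm1, Pou2af1, Sdc1, Tnfrsf17 and Mzb1), and its members were all probe sets to which the array's annotation gives 1 of these symbols and no other. Of the 22626 probe sets that are not array controls, 23 met this rule, and they measured 7 of the 8 genes. Mzb1 had no probe set named in the annotation used here. There were 11 probe sets for Ighm, 4 for Xbp1, 4 for Sdc1 and 1 each for Jchain, Prdm1, Pou2af1 and Tnfrsf17.

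The study set CD4+CD25+ regulatory T cells (Treg) of Mbd2-/- mice (here knockout) against those of wild-type (WT) mice, with 3 arrays in each group. Treg restrain immune responses, and Mbd2 encodes a protein that binds methylated DNA. All mice were on the Balb/c background, and the cells were separated with magnetic beads, so each array reports the RNA of all cells left in a preparation. The labels do not say how Mbd2 was deleted or how old the mice were. The submitters describe the samples of a genotype as independent.

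When a B cell becomes a plasma cell, the repressor Blimp-1 (encoded by Prdm1) switches off the B cell programme, XBP1 enlarges the endoplasmic reticulum, and immunoglobulin chains are made in bulk and exported. The J chain links antibody units into polymers. Blimp-1 is not confined to this lineage, since effector Treg also express Prdm1, whereas Jchain and rearranged immunoglobulin transcripts are typical of B-lineage cells. On the 6 arrays the T cell gene Cd3e read between 9.94 and 10.90 and the Treg gene Foxp3 between 6.62 and 8.83. All values are log2 expression values, on which a step of 1 is a doubling of signal.

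The arrays differed in ways that touch every result below. WT replicate 3 correlated with the other 5 arrays at 0.749 to 0.767 across probe sets, whereas the pairs without it lay between 0.956 and 0.997, and its interquartile range was narrower (5.0 to 6.64). Knockout replicate 2 had the next lowest correlations, and without both arrays the pairs lay between 0.983 and 0.997. WT replicate 3 was the lowest of the 6 arrays on 63.8% of the 13575 tested probe sets, those above a mean of 5.18. On the brighter Mbd2 probe set the knockout arrays read 5.71 to 6.14 and the WT arrays 6.93 to 8.80, with WT replicate 3 the lowest WT array. The brightest probe set of each plasma cell gene is therefore given with all 6 arrays, without WT replicate 3, without knockout replicate 2, and without both.

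As a group, the 7 measured genes were higher in knockout than in WT cells with 6 arrays, but no gene passed the threshold of an adjusted p of 0.05. On the brightest probe set of each gene, the knockout mean exceeded the WT mean for 7 of 7 genes, with a median log2 difference of 1.30 and a range of 0.76 (Ighm) to 3.17 (Pou2af1). Over all tested probe sets the median was 0.15, and 63.2% were above 0. A log2 difference above 1 was seen in 6 of the 7 genes, compared with 4.44% of all tested probe sets. The limma fit called 0 of the 7 genes after Benjamini-Hochberg adjustment, 4 had an unadjusted p under 0.05, and 0.103% of all tested probe sets were called. In 4 genes (Jchain, Ighm, Pou2af1 and Xbp1) every knockout array lay above every WT array, a pattern seen in 10.4% of all tested probe sets.

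**Figure D1:**
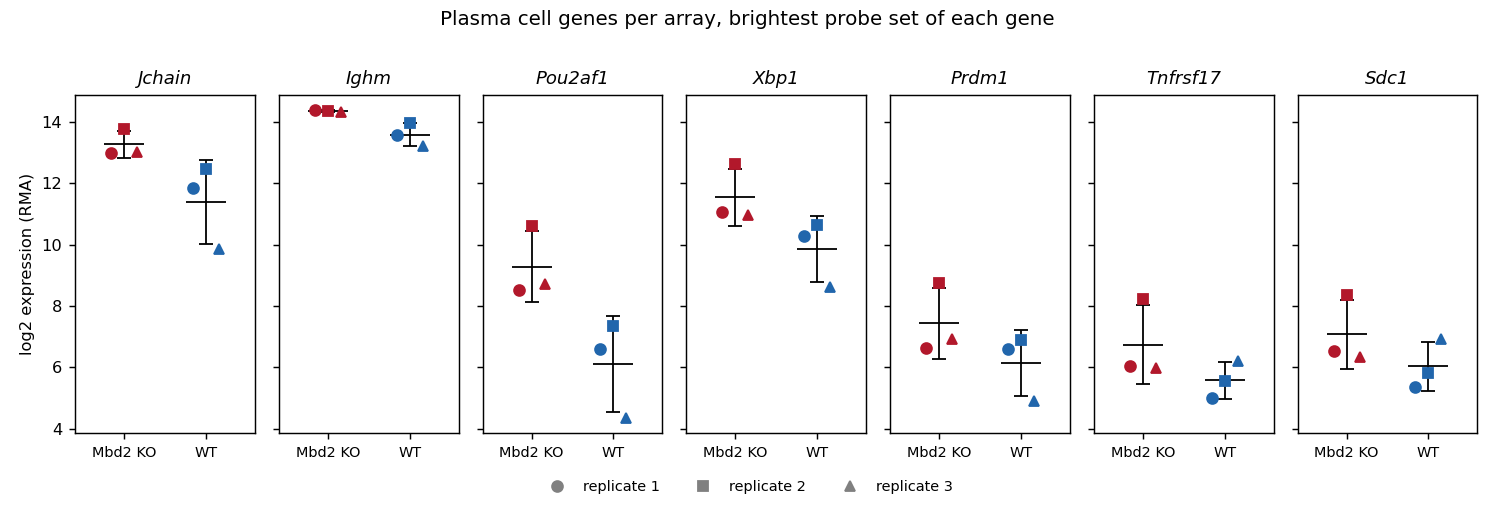
Log2 expression of the 7 measured plasma cell genes, brightest probe set of each, in 3 knockout (red, left) and 3 WT (blue, right) arrays. Symbols mark the replicates, and the horizontal lines with bars are means ± SD. Knockout replicate 2 is the highest array in 6 of the 7 genes, and WT replicate 3 is the lowest in 5.

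The position of these 2 arrays differed from gene to gene. Knockout replicate 2 was the highest of the 6 arrays for 6 of the 7 genes, while this held for 16% of all tested probe sets. It exceeded the mean of knockout replicates 1 and 3 by a median of 1.93 over the 7 genes, against -0.10 over all tested probe sets. WT replicate 3 was the lowest array for 5 genes, and for Sdc1 and Tnfrsf17 it was the highest WT array, as it was for 26.4% of all tested probe sets. WT replicate 2 was above WT replicate 1 for 7 of 7 genes, which was so for 6597 of the 13575 tested probe sets.

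Leaving out arrays changed the sizes and the calls. The median difference was 1.11 without WT replicate 3, with 7 of 7 genes higher (all tested probe sets: median -0.06, 39.3% above 0). With 5 arrays no gene was called in either direction, beside 1.4% of all tested probe sets called, the groups did not overlap in 6 genes (15.6% of all tested probe sets), and 3 genes had an unadjusted limma p under 0.05. Without knockout replicate 2 the median was 0.77 with 7 of 7 higher (66% of all tested probe sets), the groups did not overlap in 4 genes (19.4%), and 0 genes and 0% of all tested probe sets were called, while 1 gene had an unadjusted limma p under 0.05. With 2 arrays per group, after leaving out both, the median was 0.72 with 7 of 7 higher (42.9% of all tested probe sets), and limma called 6 of 7 genes as higher, all but Prdm1. That fit called 18.7% of all tested probe sets in either direction and 8.37% as higher, and its small spread rests on 2 arrays a group. Knockout arrays then lay wholly above WT arrays in the same 6 genes, compared with 26.4% of all tested probe sets.

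**Figure D2:**
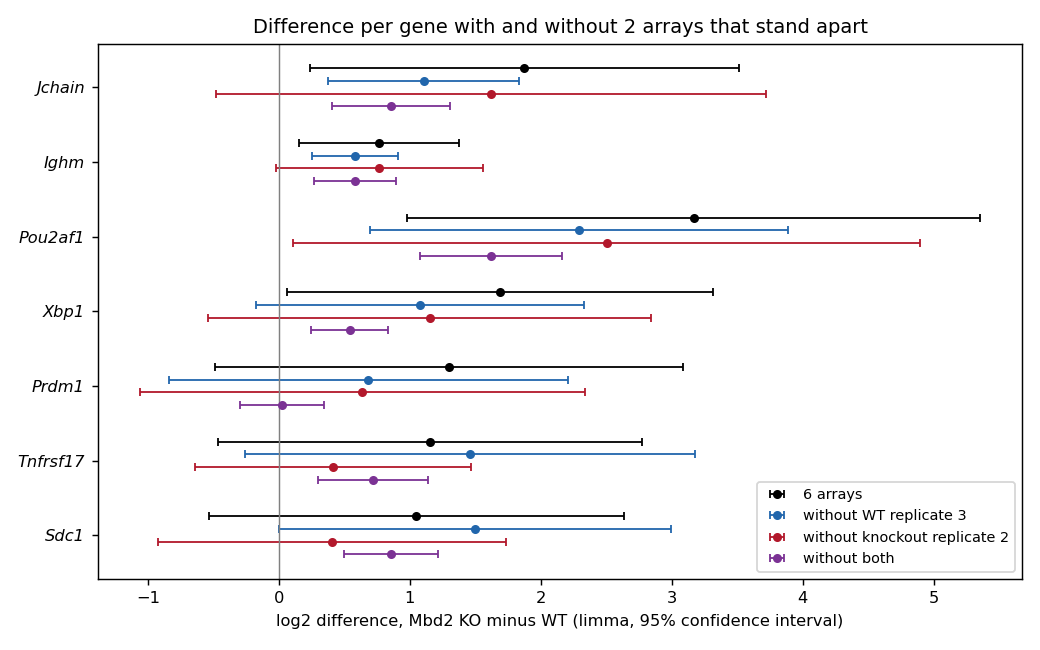
Log2 difference, knockout minus WT, with its 95% confidence interval from limma, for the brightest probe set of 7 genes under 4 choices of arrays. Prdm1 is at 1.30 with 6 arrays and at 0.02 without both arrays, while Pou2af1 stays above 1.6 in all 4.

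Jchain encodes the joining chain of polymeric IgM and IgA. Its single probe set (1424305_at) read 13.00, 13.77 and 13.03 in knockout replicates 1, 2 and 3, and 11.85, 12.48 and 9.86 in WT replicates 1, 2 and 3. The groups did not overlap, all 3 knockout values were high on the scale, and WT replicate 3 was far below the other WT arrays. The means were 13.27 ± 0.44 in knockout and 11.39 ± 1.36 in WT cells (SD, n = 3 each), a log2 difference of 1.87 with an SE of 0.68 (limma adjusted p = 0.829, unadjusted p = 0.0309). The difference was 1.11 without WT replicate 3, with an SE of 0.30 (limma adjusted p = 0.124). It was 1.62 without knockout replicate 2 (limma adjusted p = 0.909) and 0.85 without both (limma adjusted p = 0.0257). In a bulk preparation, more cells of a type and more RNA per cell cannot be told apart, here and for every gene that follows.

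Ighm encodes the heavy chain of IgM, the class that Jchain assembles into polymers. Its 2 brightest probe sets did not overlap between groups. Probe set 1427351_s_at gave 14.38, 14.35 and 14.33 in the knockout arrays, against 13.58, 13.96 and 13.22 in the WT arrays. It was the highest value of all probe sets on each of the 3 knockout arrays, which differed little among themselves (SD 0.02). The log2 difference was 0.76 with 6 arrays (limma adjusted p = 0.829) and 0.58 without WT replicate 3 (limma adjusted p = 0.0948). It was 0.77 without knockout replicate 2 and 0.58 without both arrays (limma adjusted p = 0.909 and 0.0265). Whether signal at the top of the scale is compressed was not tested, and knockout replicate 2 did not stand out here as it did on the next probe set. Probe set 1427329_a_at gave 13.80, 14.26 and 13.82 in the knockout arrays, against 12.74, 13.26 and 12.04 in the WT arrays. Its difference was 1.28 with 6 arrays and 0.96 without WT replicate 3 (limma adjusted p = 0.754 and 0.0886). The WT preparations read high too, with no array below 13.22 on the brighter probe set.

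The other 9 Ighm probe sets were dimmer and more scattered. Probe set 1452535_at gave 8.71, 11.77 and 8.15 in knockout against 7.24, 7.93 and 6.37 in WT, again without overlap, and its log2 difference was 2.36 (limma adjusted p = 0.829). It was 1.25 without knockout replicate 2 and 0.84 without both arrays (limma adjusted p = 0.909 and 0.0654). In 4 others (1427870_x_at, 1425247_a_at, 1425324_x_at and 1427756_x_at) knockout replicate 2 stood far above the rest and WT replicate 2 came second. Probe set 1425247_a_at, for example, gave 5.32, 9.64 and 6.41 in knockout and 5.93, 7.68 and 4.98 in WT. The mean difference of these 4 was between 0.66 and 0.93 with 6 arrays and turned to between -0.33 and -0.50 without knockout replicate 2. No fit called any of the 4, so for them the direction depended on 1 array. The remaining 4 (1427869_at, 1425385_a_at, 1451949_at and 1426196_at) did not pass the filter on mean level. Their knockout values lay between 4.32 and 5.57 and their WT values between 4.34 and 6.001, and WT replicate 3 was the highest WT array in all 4.

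The 11 probe sets share 1 symbol, and the annotation does not say which part of a heavy chain transcript each one matches. By the maker's naming, probes in sets ending in _x_at or _s_at may also match other transcripts, so signal from other immunoglobulin genes cannot be told apart from Ighm there. A further 4 probe sets list Ighm together with other heavy chain genes and were not used.

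**Figure D3:**
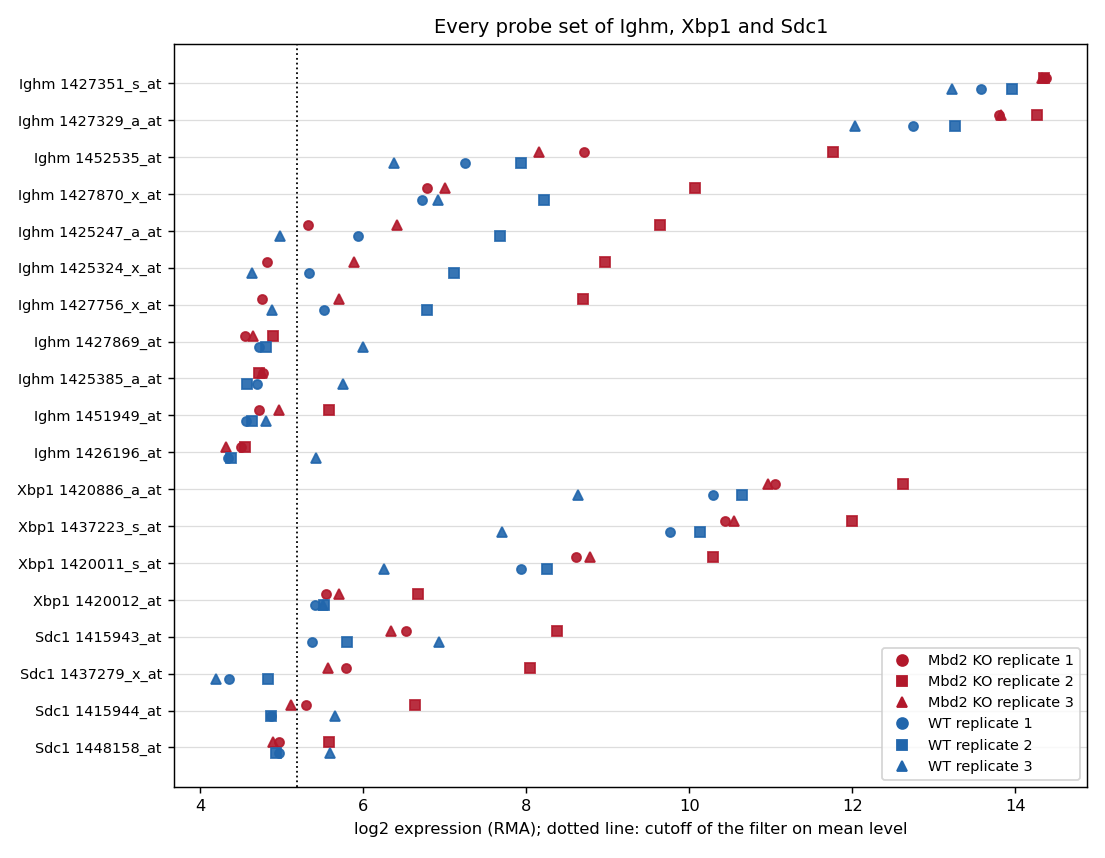
Log2 expression on each array for every probe set of Ighm, Xbp1 and Sdc1, with knockout in red above WT in blue in each row. The 2 brightest Ighm probe sets and the 4 of Xbp1 show no overlap of the groups, while 4 middle Ighm probe sets are led by replicate 2 of each genotype.

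Pou2af1 encodes OCA-B, a B cell coactivator of the octamer-binding factors Oct-1 and Oct-2, and gave the largest difference of the 7 genes. It read 8.51, 10.61 and 8.71 in the knockout arrays and 6.61, 7.36 and 4.35 in the WT arrays, so the lowest knockout array was above the highest WT array. The means were 9.28 ± 1.16 in knockout and 6.11 ± 1.57 in WT cells (SD, n = 3 each), a log2 difference of 3.17 (95% confidence interval 0.98 to 5.36, limma adjusted p = 0.784). WT replicate 3 was the lowest array, and without it the difference was 2.29, a 4.89-fold higher level in knockout (limma adjusted p = 0.136). It was 2.50 without knockout replicate 2 (limma adjusted p = 0.909). Without both arrays the gene rose by a log2 difference of 1.62, with an SE of 0.23 (limma adjusted p = 0.00595).

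Xbp1 encodes the transcription factor of the unfolded protein response that builds the secretory apparatus. The brightest of its 4 probe sets (1420886_a_at) gave 11.05, 12.62 and 10.96 in knockout and 10.29, 10.64 and 8.63 in WT arrays. Knockout replicates 1 and 3 were just above the highest WT array, and knockout replicate 2 stood 1.61 above their mean. With 6 arrays the knockout excess was 1.69 on the log2 scale (SE 0.68, limma adjusted p = 0.829). Probe sets 1437223_s_at and 1420011_s_at gave close values, 1.79 and 1.75, whereas the dim 1420012_at was at 0.49. In all 4 the knockout arrays lay above the WT arrays with 6 arrays, which leaving out arrays cannot change. The brightest probe set was at 1.08 without WT replicate 3 (limma adjusted p = 0.283). Without knockout replicate 2 it was at 1.15 (limma adjusted p = 0.909), and without both it rose by 0.54, 1.45-fold (limma adjusted p = 0.0286). The spliced and unspliced forms of Xbp1 RNA, which decide its activity, cannot be told apart from these values.

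RefSeq promoters (250 bases before to 50 after the start, assembly GRCm38.p6) were taken for 6 of the 8 genes. Ighm had no promoter entry, and Mzb1, which had no probe set, was left out. The 3 below belong to those of the 6 genes in which no knockout array fell below a WT array. They are read 5′ to 3′ on the gene's own strand. Capitals mark the only match to a motif searched.
Jchain, chr5:88527848-88528147, minus strand: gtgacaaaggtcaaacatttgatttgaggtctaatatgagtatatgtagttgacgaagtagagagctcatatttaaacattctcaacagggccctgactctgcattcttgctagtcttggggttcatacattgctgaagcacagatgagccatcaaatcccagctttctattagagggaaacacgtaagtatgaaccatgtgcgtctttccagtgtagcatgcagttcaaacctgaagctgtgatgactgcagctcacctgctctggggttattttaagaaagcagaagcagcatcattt
Pou2af1, chr9:51213440-51213739, plus strand: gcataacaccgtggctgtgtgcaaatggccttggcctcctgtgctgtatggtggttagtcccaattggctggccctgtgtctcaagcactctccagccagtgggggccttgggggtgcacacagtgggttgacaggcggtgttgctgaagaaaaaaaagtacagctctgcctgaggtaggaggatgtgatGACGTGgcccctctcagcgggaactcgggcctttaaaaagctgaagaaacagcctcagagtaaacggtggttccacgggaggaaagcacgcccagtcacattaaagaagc
Xbp1, chr11:5520391-5520690, plus strand: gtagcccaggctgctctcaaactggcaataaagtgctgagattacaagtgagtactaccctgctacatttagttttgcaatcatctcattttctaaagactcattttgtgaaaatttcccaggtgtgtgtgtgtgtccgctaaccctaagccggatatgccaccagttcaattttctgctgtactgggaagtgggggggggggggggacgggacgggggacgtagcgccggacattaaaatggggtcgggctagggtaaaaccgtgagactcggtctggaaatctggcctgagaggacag

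Both strands were searched for 3 motifs: the octamer ATGCAAAT, with which OCA-B acts, the ACGT-core element GACGTG linked to XBP1, and the Blimp-1 letters GNGAAAG. Across all 32851 promoters of this length, 1.74% held the octamer, 6.38% the ACGT-core element and 22.6% the Blimp-1 letters. Among the 6 member promoters the single match was GACGTG in Pou2af1, which begins 60 bases before the annotated start, at position -60. These are matches of letters in 1 window, and the motifs do not overlap there. For Prdm1 and Tnfrsf17 the window lay inside the RefSeq span of the gene, so it does not describe that gene's outer 5′ end.

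Prdm1 encodes Blimp-1, the repressor described above. Its probe set read 6.64, 8.76 and 6.92 in knockout arrays and 6.61, 6.90 and 4.91 in WT arrays. Knockout replicates 1 and 3 were level with WT replicates 1 and 2, knockout replicate 2 was high, and WT replicate 3 was low, so the groups overlapped. With 6 arrays the knockout excess was 1.30 on the log2 scale (SE 0.74, limma adjusted p = 0.829). It was 0.68 without WT replicate 3 (limma adjusted p = 0.55) and 0.64 without knockout replicate 2 (limma adjusted p = 0.909). Without both arrays it was 0.02, with a 95% confidence interval of -0.29 to 0.34 (limma adjusted p = 0.917). The size of the 6-array difference thus rested on these 2 arrays.

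Sdc1 encodes syndecan-1, the proteoglycan CD138 by which plasma cells are commonly sorted. Its brightest probe set (1415943_at) read 6.53, 8.37 and 6.34 in knockout and 5.36, 5.80 and 6.93 in WT arrays. WT replicate 3 was above knockout replicates 1 and 3, and apart from it the groups did not overlap. The log2 difference was 1.05 with 6 arrays (limma adjusted p = 0.829) and 1.498 without WT replicate 3 (limma adjusted p = 0.232). It was 0.40 without knockout replicate 2 (limma adjusted p = 0.909) and 0.85 without both (limma adjusted p = 0.0127), where the gene rose. A second probe set, 1437279_x_at, read 5.78, 8.05 and 5.57 in knockout and 4.35, 4.83 and 4.19 in WT arrays, without overlap. All 3 of these WT values were under the filter cutoff, so this probe set was tested only because it was bright in knockout, and it was at least 2.43-fold higher there with WT values raised to the cutoff (limma adjusted p = 0.829). Without knockout replicate 2 this bound was 1.41-fold (limma adjusted p = 0.909). The 2 other Sdc1 probe sets were dim, at 4.86 to 6.63 on all arrays, and overlapped between groups with 6 arrays, and 1448158_at, with a difference of -0.01, did not pass the filter.

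Tnfrsf17 encodes BCMA, the receptor through which the survival factors BAFF and APRIL act on plasma cells. It read 6.03, 8.22 and 5.97 in the knockout arrays and 4.99, 5.57 and 6.20 in the WT arrays. As for Sdc1, knockout replicate 2 was high and WT replicate 3 lay above knockout replicates 1 and 3. Knockout minus WT came to 1.15 with 6 arrays, 1.46 without WT replicate 3 and 0.41 without knockout replicate 2 (limma adjusted p = 0.829, 0.289 and 0.909). Without both arrays Tnfrsf17 rose by 0.72 (limma adjusted p = 0.0344).

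Other immunoglobulin chains with a probe set of their own were few, 3 of 12 listed, and all 3 were higher in knockout with 6 arrays. Iglv1, a lambda light chain variable segment, gave 12.48, 13.56 and 12.34 in knockout against 9.85, 10.49 and 7.11 in WT. Its log2 difference was 3.64 (limma adjusted p = 0.584), and it rose without WT replicate 3, by 2.62 (limma adjusted p = 0.0484). No other of the 3 was called in that fit, which called 0.67% of all tested probe sets as higher. Ighg3, the heavy chain of IgG3, was at 9.57, 12.47 and 9.88 in knockout and 7.56, 7.93 and 6.73 in WT, a difference of 3.23 (limma adjusted p = 0.604). Igha, the heavy chain of IgA, overlapped, at 12.09, 14.08 and 11.59 in knockout and 11.54, 12.54 and 10.61 in WT. Its difference was 1.02 with 6 arrays, 0.28 without knockout replicate 2 and -0.20 without both arrays (limma adjusted p = 0.829, 0.912 and 0.697). Without both arrays Iglv1 and Ighg3 were called higher, by 2.24 and 1.98 (limma adjusted p = 0.00112 and 0.000755), against 8.37% of all tested probe sets. Near-identical immunoglobulin genes can share these probes.

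Further regulators and receptors of plasma cells had 15 of 21 listed genes tested, with 12 higher and 3 lower in knockout, a median of 1.04 and 0 called with 6 arrays. A fit without WT replicate 3 called 1 of the 15 (0.67% of all tested probe sets called as higher), at a median of 0.34. That gene was Cd93, a surface glycoprotein of long-lived plasma cells and also of myeloid cells, which read 6.26, 6.08 and 6.07 in knockout and 4.89, 5.17 and 4.78 in WT arrays. All 3 WT values were under the filter cutoff, so Cd93 was tested only through its knockout arrays. It was at least 1.94-fold higher there without WT replicate 3 (limma adjusted p = 0.0239, against 0.286 with 6 arrays). Eaf2, an elongation factor partner abundant in germinal centre and plasma cells, was at 2.18, the receptor gene Slamf7 at 1.35 and the BAFF receptor gene Tnfrsf13c at 1.11 with 6 arrays, none of them called. Without both arrays 8 of the 15 were higher and 7 lower at a median of 0.07. In that fit 4 were called higher and 2 lower, against 8.37% and 10.3% of all tested probe sets. Those 2, named after their values were seen, were the adhesion receptor gene Cd44, which fell by 0.87, and the costimulatory receptor gene Cd27, which fell by 0.48 (limma adjusted p = 0.00317 and 0.0114). Both read high in WT replicates 1 and 2 (Cd44 9.52 and 9.61, Cd27 9.71 and 9.61). The list was thus not limited to genes particular to plasma cells. Ell2, the elongation factor that favours secreted immunoglobulin RNA, read 6.22, 8.58 and 6.13 in knockout and 6.21, 6.52 and 4.12 in WT, like Prdm1 high in knockout replicate 2 and low in WT replicate 3.

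Secretory pathway genes had a higher knockout mean in 28 of 29 tested genes with 6 arrays and in 29 of 29 without WT replicate 3. None was called in either fit, with medians of 1.15 and 0.60. Every knockout array lay above every WT array in 20 of the 29 genes with 6 arrays and in 21 without WT replicate 3, against 10.4% and 15.6% of all tested probe sets. Herpud1, a component of endoplasmic reticulum degradation, was at 2.15, the folding-related gene Creld2 at 2.08, Sdf2l1 at 1.61 and the protein disulphide isomerase gene Pdia6 at 0.80. Without both arrays, 12 of the 29 were called, all higher (8.37% of all tested probe sets were called higher), and the median was 0.26. The mean log2 level of the 29 genes was 8.68, 9.80 and 8.63 in knockout and 8.19, 8.37 and 7.07 in WT arrays, so knockout replicate 2 stood above the rest here too.

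Genes that Blimp-1 represses in B cells did not show a common direction, with 6 of 9 tested genes higher and 3 lower at a median of 0.29, and 0 called. Spib, a B cell and plasmacytoid dendritic cell transcription factor, was at 1.62 (limma adjusted p = 0.189) and rose without WT replicate 3, by 1.55 (limma adjusted p = 0.0353). It was the only 1 of the 9 called in that fit, which called 0.67% of all tested probe sets as higher. The B cell receptor inhibitor gene Cd22 was at 0.97, the class II transactivator gene Ciita at 1.14 and Myc at 0.53 with 6 arrays, and all 3 WT values of Ciita were under the filter cutoff. The median of the 9 was 0.08 without WT replicate 3 and 0.68 without knockout replicate 2. Without both arrays it was 0.10, with 3 called higher and 2 lower, against 8.37% and 10.3% of all tested probe sets.

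Markers of other cell types differed between the groups as well, and their part in the difference was not tested. Of 15 listed B cell identity genes 10 were tested, and all 10 exceeded WT in the knockout mean, at a median of 1.53. None was called with 6 arrays or without WT replicate 3, and without both arrays 8 were called higher and 1 lower, against 8.37% and 10.3% of all tested probe sets. The adaptor gene Blnk was at 2.44 (limma adjusted p = 0.244), Cd79a and Cd79b, the signalling chains of the B cell receptor, at 2.04 and 1.87, and the Fc receptor-like gene Fcrla at 1.599. The B cell genes averaged 7.37, 7.81 and 7.10 in the knockout arrays and 5.95, 6.51 and 5.73 in the WT arrays. For the 7 plasma cell genes the mean level was 9.45, 10.96 and 9.47 in knockout and 8.47, 8.96 and 7.73 in WT arrays.

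Neutrophil and macrophage genes were higher in 15 of 15 tested genes, with a median of 3.07, and 5 were called higher with 6 arrays, against 0.103% of all tested probe sets. Those were Camp (5.12), Ngp (5.07), Ltf (4.92), Lcn2 (4.91) and Lyz2 (4.67), proteins of granules and lysozyme. Without WT replicate 3 these 5 and S100a9, S100a8 and Csf1r were called higher, against 0.67% of all tested probe sets. The mean level of the 15 genes was 9.02, 9.84 and 8.90 in knockout and 5.41, 6.11 and 5.87 in WT arrays, with knockout replicate 2 again the highest. These WT levels were near the filter cutoff of 5.18 on the 6-array mean, so genes dim in WT could be tested through their knockout arrays. A filter on the lowest 60% kept 11 of the 15 at a median of 4.91, and averaging probe sets per gene gave 2.37. Of the macrophage genes, C1qb and Vcam1 read 8.47 and 9.29 in knockout replicate 2, above the 6.26 to 6.27 and 7.19 to 7.40 of the other knockout arrays.

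Plasmacytoid dendritic cells express some of the same genes, among them Spib and Irf8, and 8 of 12 listed genes were tested. Of these 3 were higher and 5 lower in knockout, with a median of -0.12. The sign of this median was not stable, at 0.10, 0.13 and 0.13 without WT replicate 1, 2 or 3 and at 0.08 without both arrays. In the fit without both, 3 genes were called higher and 1 lower, against 8.37% and 10.3% of all tested probe sets. Irf8 was at 1.46, Tcf4 at 1.68, Atp1b1 at 0.47 and Pacsin1 at -0.41, none called with 6 arrays. Without WT replicate 3 the chemokine receptor gene Ccr9, which T cells express too, fell by 1.01 (limma adjusted p = 0.0255), and no other gene of the list was called.

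Treg and T cell genes had mostly the opposite sign. Of 11 tested identity genes 10 were lower in knockout with 6 arrays, with a median of -0.46 and 0 called. The median was -0.09 without knockout replicate 2 (9 of 11 lower), -0.25 and -0.29 without WT replicate 1 or 2, and -0.79 without WT replicate 3. Without both arrays it was -0.45, and 10 of the 11 were called lower, against 10.3% of all tested probe sets. Ikzf4, a partner of Foxp3, was at -1.06, the surface receptor gene Nrp1 at -0.76, the checkpoint gene Ctla4 at -0.64 and Cd3g at -0.48. Without WT replicate 3 all 11 were lower, every knockout array was below both WT arrays in all 11 (all tested probe sets: 31.8%), and Nrp1 fell by 1.39 (limma adjusted p = 0.0349). Their mean level was 9.09, 8.33 and 9.19 in knockout and 9.75, 9.73 and 8.51 in WT arrays. Knockout replicate 2 was thus lowest for T cell genes, whereas it was highest for plasma cell, B cell, and neutrophil and macrophage genes. Foxp3 itself read 7.98, 6.62 and 8.17 in knockout and 8.83, 8.74 and 6.93 in WT arrays.

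Effector Treg genes linked to Blimp-1 were looked at because Prdm1 is also a gene of that state. With 6 arrays 3 of 10 were higher and 7 lower at a median of -0.29, and 0 were called. The median was -0.07 without WT replicate 1, 0.02 without WT replicate 2 and -0.71 without WT replicate 3. Without both arrays it was -0.86 and 8 of the 10 were called lower, against 10.3% of all tested probe sets. Without WT replicate 3, 6 fell and 0 rose: Cxcr3 by 1.93, Ccr6 by 1.31, Icos by 0.96, Rora by 0.82, Itgae by 0.74 and Batf by 0.62, against 0.729% of all tested probe sets called lower. Gzmb was at 1.32 and the cytokine gene Il10 at 0.71 with 6 arrays, neither of them called.

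**Figure D4:**
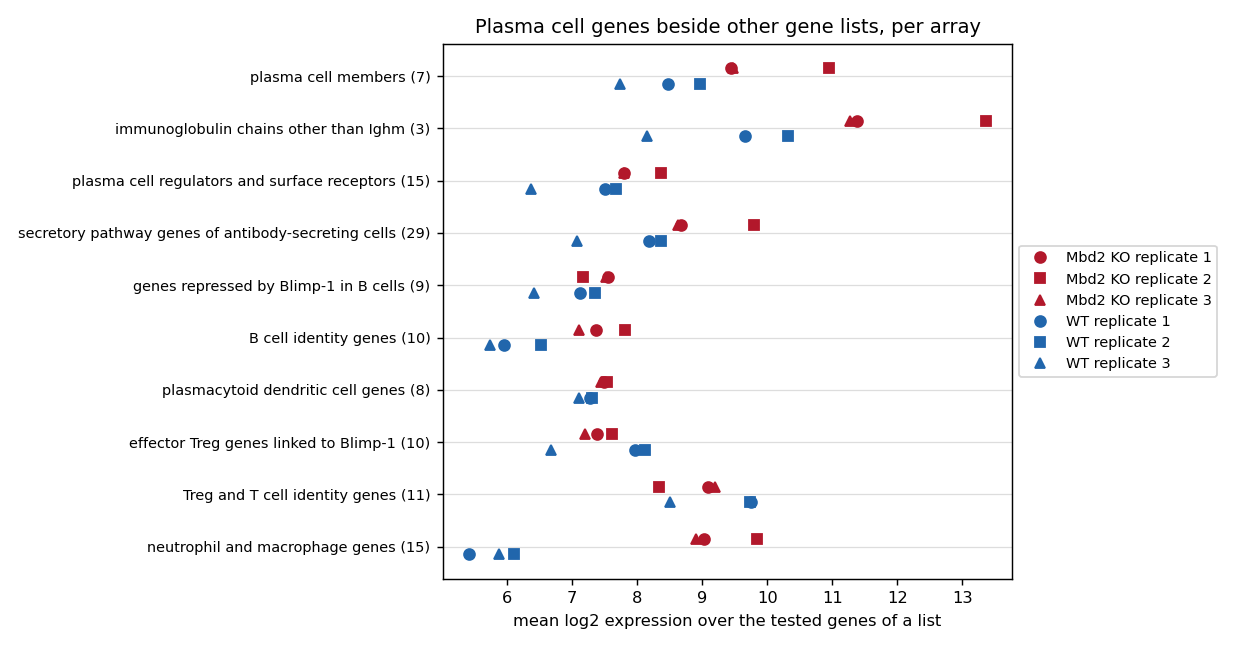
Mean log2 expression per array over the tested genes of each list (number of genes in brackets), with knockout in red above WT in blue. Knockout replicate 2 lies to the right of the other arrays for plasma cell, immunoglobulin and secretory genes. The same holds for the regulator, B cell identity, neutrophil and macrophage, and plasmacytoid dendritic cell lists. It lies at the far left for Treg and T cell identity genes.

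The nearest genes were found by the root mean square difference between log2 values centred on each gene's own mean, over the 6 arrays and 8189 other genes. The values were not scaled, so the size of a gene's changes counts as well as the order of its arrays. The root mean square difference is a measure of likeness on 6 points, of which WT replicate 3 and knockout replicate 2 carry much. Nearest to Prdm1 were Edem1 (0.12), the amino acid transporter subunit Slc3a2 (0.16), Ell2 (0.22) and Edem2 (0.23), and Xbp1 was sixth (0.25), with a median of 1.005 over all genes. Edem1 and Edem2 act in the degradation of misfolded glycoproteins.

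The genes nearest to Xbp1 were H1f2 (0.13), D17H6S56E-5 (0.14), Edem1 (0.14) and Adam9 (0.18), and Prdm1 was number 15 (0.25). Nearest to Jchain were Grn (0.22), the chaperone gene Hsp90b1 (0.25), Lamp2 (0.26) and Hsph1 (0.26), with Xbp1 number 20 (0.35) and Pou2af1 number 1231 (0.78). Pou2af1 put the 6 arrays in the same order as Jchain, but over a range of 6.26 against 3.91. Nearest to Ighm, on the probe set whose knockout values top the scale and may be compressed, were Arhgap21 (0.07), Racgap1 (0.09), Wee1 (0.12) and Stip1 (0.13). The other measured members were all farther from Ighm than the median gene (0.49), from Xbp1 (0.83, number 7285) to Pou2af1 (1.55, number 8152). This probe set of Ighm spanned only 1.16 over the 6 arrays, so genes with much larger changes had to lie far from it. Sdc1 and Tnfrsf17 were far from Jchain by this measure (1.35 and 1.23, median of all genes 1.07), and WT replicate 3 was their highest WT array but the lowest for Jchain.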

How the data were processed

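RNA of 6 samples was hybridised to single-colour arrays. The authors deposited 1 log2 value for each probe set and array, computed with RMA per the submitters' processing notes. The RMA software version and the arrays normalized in 1 run are unstated. Precision is limited by having 3 arrays a group.

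Genotype groups came from the sample titles. Of 22690 probe sets, 64 controls were left out. Symbols came from the platform annotation, updated by gene ID through RefSeq (GRCm38.p6): 20380 probe sets had 1 symbol, 691 several and 1555 none listed. The 40% with the lowest mean (under 5.18) were left out, and the other 13575 entered a limma 3.58.1 fit (R 4.3.3, lmFit and eBayes) whose only term was the group, with p-values adjusted over all of them by Benjamini-Hochberg, with a threshold of 0.05. Member probe sets under the filter were taken from a fit without it. The fit was tested on simulated data. A gene is represented by its brightest probe set. Folds against a group mean under the cutoff use values raised to it. Motifs were searched in RefSeq promoters. Figures used matplotlib 3.10.9.

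Members and lists were chosen with earlier results of these data known. Named genes were all members, up to 4 genes of each other list by smallest p, any list gene called with 6 arrays or without WT replicate 3, and the 4 genes nearest to each of 4 members; Ell2, C1qb, Vcam1, Cd3e, Cd44, Cd27 and Foxp3 were named for their array values after these were seen. Of 150 listed symbols 126 were on the array and 117 tested.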

Additional observations from a re-analysis of the deposited data

How the results depend on the processing

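With 6 arrays 14 probe sets and 0 of 7 plasma cell genes passed the threshold. Without each array in turn the counts ran from 0 to 190 probe sets, the highest without WT replicate 3, and 0 genes; the median difference of the 7 genes ran from 0.77 (without knockout replicate 2) to 1.70 (without knockout replicate 1). Without both WT replicate 3 and knockout replicate 2, 2537 probe sets and 6 of the 7 genes were called, with a median of 0.72. With array weights, limma called 2323 probe sets and 3 of the 7 genes, with a median of 0.60, and Prdm1 turned to -0.0405 (adjusted p = 0.938). WT replicates 1, 2 and 3 had weights of 0.448, 4.39 and 0.0289, so the WT side rested mostly on replicate 2. Knockout replicates 1, 2 and 3 had weights of 8.24, 0.585 and 3.65. Without a filter 8 probe sets and 0 genes were called. A trended robust variance model, a filter on the lowest 60%, a further quantile normalization, median centring, an adjusted p under 0.1 and averaging all probe sets per gene called 0 of the genes tested. The stricter filter left out Tnfrsf17. The cause of these shifts was not tested.

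With the replicate number as a block, 10 probe sets and 0 genes were called. Same-numbered arrays deviated together in 1 of 3 pairs only (correlations of 0.16, -0.12 and -0.14). Differently numbered pairs reached 0.19, and deviations within 3 arrays are not independent, so whether the numbers pair the samples cannot be told. The medians of the other lists moved by more than the spread between replicates in 14 of their settings. The values came without detection calls, so the level at which a dim probe set carries signal is unknown.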
